A study of Mus musculus with 14 samples.

Results

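The Schwann cell and myelin genes described here were Pmp22, Mbp, Mag, Prx, Sox10 and Cnp, measured in skeletal muscle of mice with endothelial overexpression of c-Myc and of their controls. They were taken by gene symbol from the deposited table, which held 6 of 6 among 54532 genes, and all 6 were among the 15458 genes that passed the filter on low counts. The study dealt with c-Myc in endothelial cells and metabolic homeostasis. Part of it compared muscle of control and overexpressing mice on a western diet (WD) or a control diet (CTD). RNA was sequenced from skeletal muscle of male FVB/N mice, described in the study as soleus and gastrocnemius without saying which muscle a library came from. Overexpressing mice (OE) carried the Tet-O-Myc transgene, a human c-Myc on the Y chromosome, together with Cdh5-tTA, a transactivator driven by an endothelial promoter. Controls (CT) were littermates with Tet-O-Myc and no transactivator. Mice were bred on doxycycline, which keeps the transgene silent, and it was withdrawn between 4 and 6 weeks of age. Diets were then given for 20 weeks by the labels. The 14 libraries were 3 of CT-CTD, 3 of CT-WD, 4 of OE-CTD and 4 of OE-WD, and are named here by group and replicate number.

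Muscle is supplied by nerve branches in which Schwann cells wrap each motor axon in a compact, lipid-rich sheath of myelin that speeds conduction. The sheath is built from a small set of abundant membrane proteins and is switched on by transcription factors led by Sox10 and Egr2. Schwann cells make up a small share of the cells of muscle, so the transcripts of myelin in a piece of muscle also depend on how much intramuscular nerve the piece holds.

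The libraries held between 21833839 and 28519159 counted reads. Levels are given as CPM, read counts scaled to libraries of a common size, after TMM scaling for their composition. In bulk tissue, fewer Schwann cells and less RNA per Schwann cell cannot be told apart. Pmp22 had between 746 and 2572 reads per library and Mag, the lowest of the 6 genes in reads, between 24 and 78. Counts of 24 and 78 have exact 95% Poisson intervals of 15.4 to 35.7 and 61.7 to 97.3, which cover counting error only.

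None of the 6 genes passed the test for a difference between diets or genotypes, and the libraries of every pair of groups overlapped for each of them. A gene was called at an adjusted p under 0.05 by edgeR's quasi-likelihood test with Benjamini-Hochberg adjustment over all genes tested. In CT-WD against CT-CTD 0 of 6 genes were called, as were 0% of all genes, and 0 of 6 reached an unadjusted p under 0.05, against 7.28% of all genes. In OE-WD against OE-CTD 0 of 6 were called, where 0.00647% of all genes were, and 0 of 6 passed unadjusted, against 4.2%. In OE-WD against CT-WD 0 of 6 were called, where 0.725% of all genes were, and 0 of 6 passed unadjusted, against 16.9%. In OE-CTD against CT-CTD 0 of 6 were called, where 2.67% of all genes were, and 0 of 6 passed unadjusted, against 15.9%. These 4 comparisons share groups with each other. The interaction of diet and genotype gave 0 of 6 calls against 0% of all genes, and 0 of 6 unadjusted against 5.92%. Averaged over diets, genotype gave 0 of 6 calls against 8.49%, and 0 of 6 unadjusted against 23.9%. Averaged over genotypes, diet gave 0 of 6 calls against 0.00647%, and 0 of 6 unadjusted against 5.96%. Libraries of the groups did not overlap for 0 of 6 genes in any comparison, while among all genes that share was 9.63% for diet in CT, 4.08% for diet in OE, 11.6% for genotype on WD and 15.5% for genotype on CTD. It was 1.83% for genotype and 0.0582% for diet over the pooled groups. DESeq2 and limma also called 0 of 6 in each comparison.

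Pmp22 encodes peripheral myelin protein 22, a membrane protein of compact myelin whose gene dose decides inherited neuropathies (ENSMUSG00000018217, GRCm38 chromosome 11, 63128982 to 63159547, plus strand). In CT-CTD its level was 101.7, 35.8 and 68.8 CPM, and in CT-WD 68.7, 55.8 and 65.7 CPM. In OE-CTD it was 90.5, 84.4, 98.9 and 38.1 CPM, and in OE-WD 51.9, 90.1, 95.1 and 44.2 CPM. The range in CT-CTD alone, 2.84-fold, spanned every library of CT-WD, and both OE groups held libraries at 84.4 CPM or more beside libraries at 51.9 CPM or less. The means were 68.8 ± 32.9 (SD, n = 3) in CT-CTD, 63.4 ± 6.76 (n = 3) in CT-WD, 77.96 ± 27.3 (n = 4) in OE-CTD and 70.4 ± 26.0 (n = 4) in OE-WD. The log2 difference for diet was −0.12 in CT (SE 0.37, adjusted p = 0.973) and −0.15 in OE (SE 0.32, adjusted p = 1), and leaving out single libraries put it between −0.43 and 0.27 in CT and between −0.375 and 0.02 in OE.

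Mbp encodes myelin basic protein, which holds the cytoplasmic faces of the myelin membrane together (ENSMUSG00000041607, GRCm38 chromosome 18, 82475146 to 82585637, plus strand). Its level in CT-CTD was 65.9, 19.0 and 54.04 CPM, and in CT-WD 49.7, 32.1 and 44.2 CPM. In OE-CTD it was 69.5, 66.5, 67.6 and 25.7 CPM, and in OE-WD 30.3, 77.4, 78.5 and 28.5 CPM. OE-CTD held 3 libraries close together and OE-CTD 4 far below them, and OE-WD was split into a pair at 77.4 and 78.5 CPM and a pair at 28.5 and 30.3 CPM. The deposited names of OE-CTD 1, 2 and 3 share their digits and that of OE-CTD 4 has others, while all 4 names of OE-WD share theirs, and the labels do not say whether shared digits mark a litter, an animal or neither. From CT-CTD 2 to OE-WD 3 Mbp spanned 4.14-fold, the widest range of the 6 genes. The means were 46.3 ± 24.4 (SD, n = 3) in CT-CTD, 42.01 ± 8.99 (n = 3) in CT-WD, 57.3 ± 21.1 (n = 4) in OE-CTD and 53.7 ± 28.04 (n = 4) in OE-WD. The log2 difference for genotype averaged over diets was 0.33 (SE 0.31, 95% interval −0.33 to 0.99, edgeR adjusted p = 0.558), and between 0.14 and 0.50 at leaving out single libraries. The count of a gene pools all its transcripts, of which the annotation lists 16 for Mbp.

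Prx encodes periaxin, a scaffold of the Schwann cell membrane that links to dystroglycan through Drp2 (ENSMUSG00000053198, GRCm38 chromosome 7, 27499324 to 27520214, plus strand). Prx was at 32.5, 11.3 and 23.3 CPM in CT-CTD, and at 20.9, 16.0 and 16.2 CPM in CT-WD. It was at 25.8, 25.9, 31.2 and 12.8 CPM in OE-CTD, and at 13.7, 30.9, 31.0 and 17.0 CPM in OE-WD. CT-CTD held both the highest and the lowest of the 14 values, so every other group lay within its range. The means were 22.4 ± 10.6 (SD, n = 3), 17.7 ± 2.76 (n = 3), 23.9 ± 7.82 (n = 4) and 23.1 ± 9.12 (n = 4) CPM in the same order of groups. The genotype difference on WD was 0.38 on the log2 scale (SE 0.35, edgeR adjusted p = 0.624), and between 0.21 and 0.57 at leaving out single libraries.

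Mag encodes myelin-associated glycoprotein, an adhesion molecule of the innermost myelin layer that faces the axon (ENSMUSG00000036634, GRCm38 chromosome 7, 30899176 to 30914873, minus strand). CT-CTD libraries had 1.74, 1.13 and 2.18 CPM of Mag, and CT-WD libraries 1.63, 1.16 and 1.33 CPM. OE-CTD libraries had 1.76, 2.38, 1.36 and 1.28 CPM, and OE-WD libraries 1.21, 2.52, 3.32 and 1.77 CPM. In OE-WD the 3 higher libraries were above all 3 of CT-WD, but OE-WD 1 lay between CT-WD 2 and CT-WD 3, so the groups overlapped. The group means on WD were 2.20 ± 0.918 (SD, n = 4) in OE and 1.37 ± 0.236 (n = 3) in CT, a log2 difference of 0.67 (SE 0.35, 95% interval −0.07 to 1.41). This was the largest difference between 2 groups for any of the 6 genes (edgeR adjusted p = 0.346). Leaving out single libraries put the difference between 0.41, without OE-WD 3, and 0.87, without OE-WD 1, with edgeR adjusted p between 0.2 and 0.645. On log2(FPKM + 1) it was 0.21 by limma. Mag had at most 0.887 FPKM in a library, so the added 1 shrinks differences on that scale, and 0.21 and 0.67 are not directly comparable. The interaction for Mag was 0.65 (SE 0.49, edgeR adjusted p = 0.895).

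Cnp encodes an enzyme of cyclic nucleotides that lies in the non-compact regions of myelin and is also made outside myelinating cells (ENSMUSG00000006782, GRCm38 chromosome 11, 100574904 to 100591729, plus strand). Cnp had 13.6, 11.8 and 14.8 CPM in the CT-CTD libraries, against 12.3, 12.7 and 12.8 CPM in CT-WD. OE-CTD libraries had 14.3, 13.1, 13.2 and 10.1 CPM of it, and OE-WD libraries 11.01, 14.3, 15.6 and 11.4 CPM. Cnp was the steadiest of the 6, with 1.55-fold between OE-CTD 4 and OE-WD 3, and the 4 groups overlapped. Its log2 difference for genotype averaged over diets was −0.01 (SE 0.10, 95% interval −0.23 to 0.20, edgeR adjusted p = 0.957), the narrowest interval of the 6 genes in that comparison. The locus overlaps Dnajc7 on the opposite strand, which averaged 74.2 CPM. The strand setting of the counting is not given in the sources used here, so reads of Dnajc7 in the Cnp count could not be told apart from reads of Cnp.

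Sox10 encodes the transcription factor that specifies the Schwann cell lineage and drives its myelin genes (ENSMUSG00000033006, GRCm38 chromosome 15, 79154908 to 79165240, minus strand). It was at 5.77, 1.51 and 3.97 CPM in CT-CTD, and at 3.87, 4.01 and 4.40 CPM in CT-WD. It was at 5.10, 5.38, 6.14 and 2.55 CPM in OE-CTD, and at 4.51, 4.03, 5.19 and 2.69 CPM in OE-WD. CT-CTD 2 was the lowest of the 14 libraries and OE-CTD 3 the highest, 4.08-fold apart, and CT-WD lay inside the range of CT-CTD. The means were 3.75 ± 2.14 (SD, n = 3), 4.09 ± 0.276 (n = 3), 4.79 ± 1.56 (n = 4) and 4.11 ± 1.06 (n = 4) CPM in CT-CTD, CT-WD, OE-CTD and OE-WD. The genotype difference was 0.36 on CTD (SE 0.36, edgeR adjusted p = 0.69), and it was 0.80 without CT-CTD 1 (edgeR adjusted p = 0.293) and −0.01 without CT-CTD 2 (edgeR adjusted p = 0.995).

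**Figure D1:**
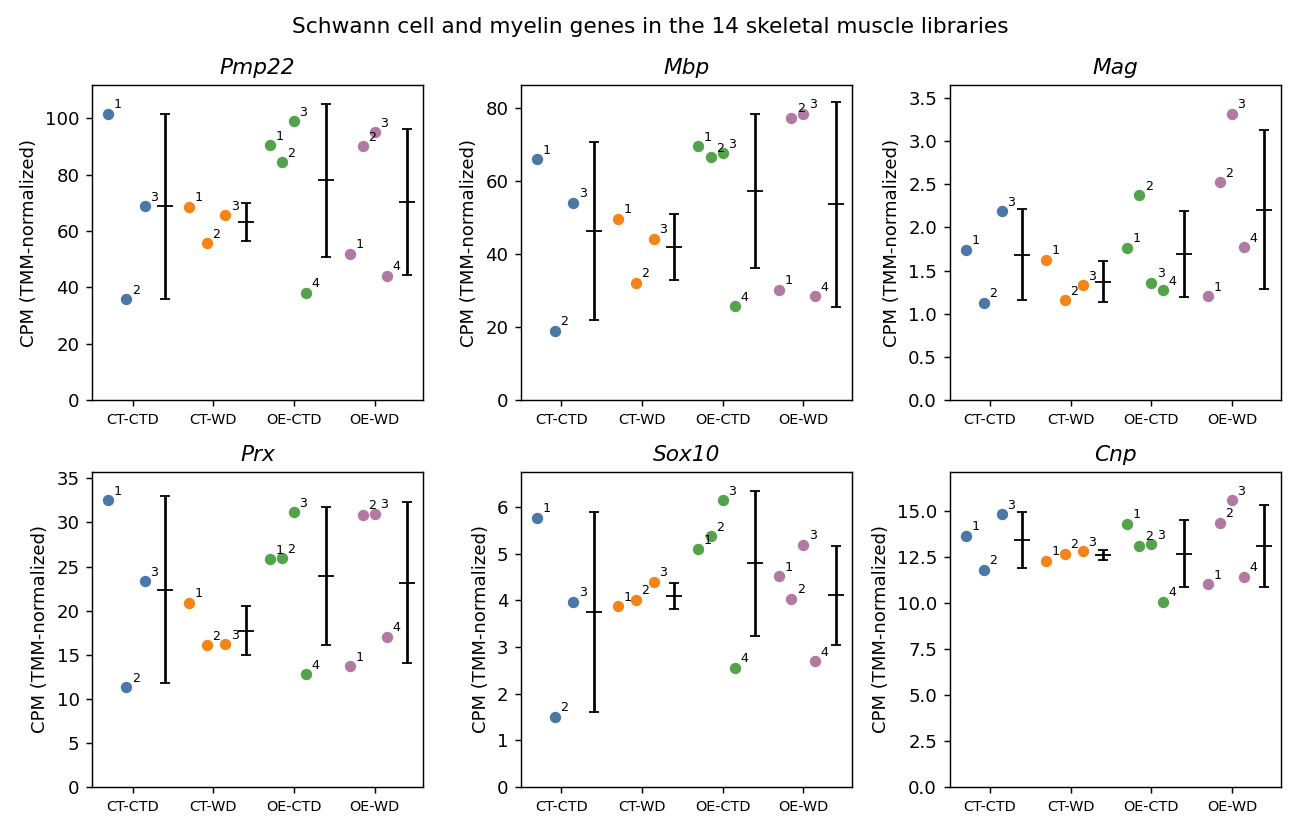
Level of each of the 6 genes in CPM in the 14 libraries, with the replicate number beside each point and the group mean and SD as a black dash and bar. The groups overlap for each gene, and Mbp in OE-WD lies between 28.5 and 78.5 CPM.

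**Figure D2:**
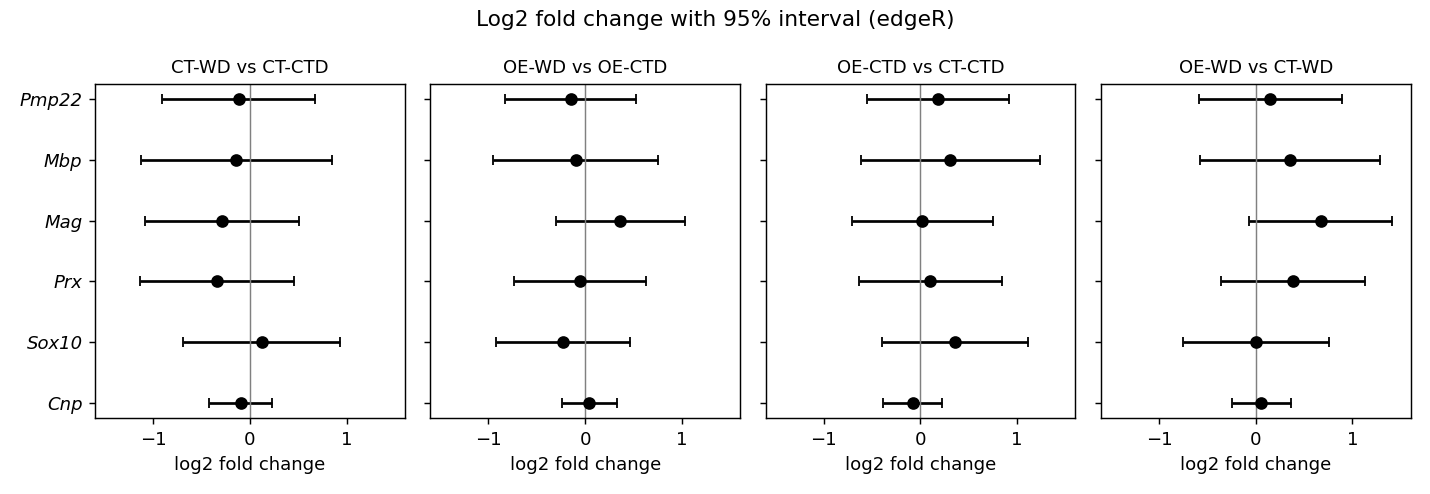
Log2 fold change of each gene with its 95% interval (edgeR) in the 4 comparisons between groups. The 24 intervals include 0, and the highest estimate is Mag in OE-WD against CT-WD, at 0.67.

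The intervals also give the range of differences compatible with these libraries, without adjustment over genes. For Pmp22 the ratio of OE to CT averaged over diets was 1.12, with a 95% interval of 0.78 to 1.61, and for Mbp it was 1.26, with an interval of 0.80 to 1.98. For Cnp the same interval was 0.85 to 1.15. For diet averaged over genotypes the ratio of WD to CTD was 0.91 for Pmp22 (0.64 to 1.31) and 0.98 for Cnp (0.85 to 1.14). The median log2 difference of the 6 genes was −0.13 for diet in CT, −0.07 for diet in OE, 0.25 for genotype on WD and 0.14 for genotype on CTD. Over all genes tested the same medians were 0.01, 0.00 and 0.01 for the former 3 and 0.00 for genotype on CTD.

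Levels of different genes were compared per length, in FPKM as deposited. Pmp22 was the most abundant at 32.8 ± 10.5 FPKM (SD over 14 libraries), followed by Mbp at 6.57 ± 2.66, Prx at 4.31 ± 1.47, Cnp at 3.88 ± 0.446, Sox10 at 1.51 ± 0.459 and Mag at 0.474 ± 0.169 FPKM. Pmp22 was above Mbp in 14 of 14 libraries by a median ratio of 5.26, and their ranges did not overlap. Mbp was above Prx in 14 of 14 libraries, by a median ratio of 1.51. Prx and Cnp, neighbours in this order, did not differ beyond their spread, and Prx was the higher in 8 of 14 libraries. Cnp was above Sox10 and Sox10 above Mag in 14 of 14 libraries, the latter by a median ratio of 3.10.

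The spread of these genes lay between libraries of 1 group. Within groups the SD of log2 CPM was 0.74 for Mbp, more than for 98.3% of the 12746 genes with a mean of at least 1 CPM. It was 0.58 for Pmp22, Prx and Sox10, above 95.9%, 95.8% and 95.8% of those genes, and 0.46 for Mag, above 91% of them. Cnp had 0.19, close to the median of 0.19 over those genes. A mean of the 6 genes, each standardized over the libraries, was lowest in CT-CTD 2 at −1.63 and OE-CTD 4 at −1.36, followed by OE-WD 1 at −0.78 and OE-WD 4 at −0.76. It was highest in OE-WD 3 at 1.26, OE-WD 2 at 0.87 and CT-CTD 1 at 0.79. High and low libraries thus came from CT-CTD, OE-CTD and OE-WD alike, and only CT-WD, between −0.54 and −0.05, had its 3 libraries close together.

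**Figure D3:**
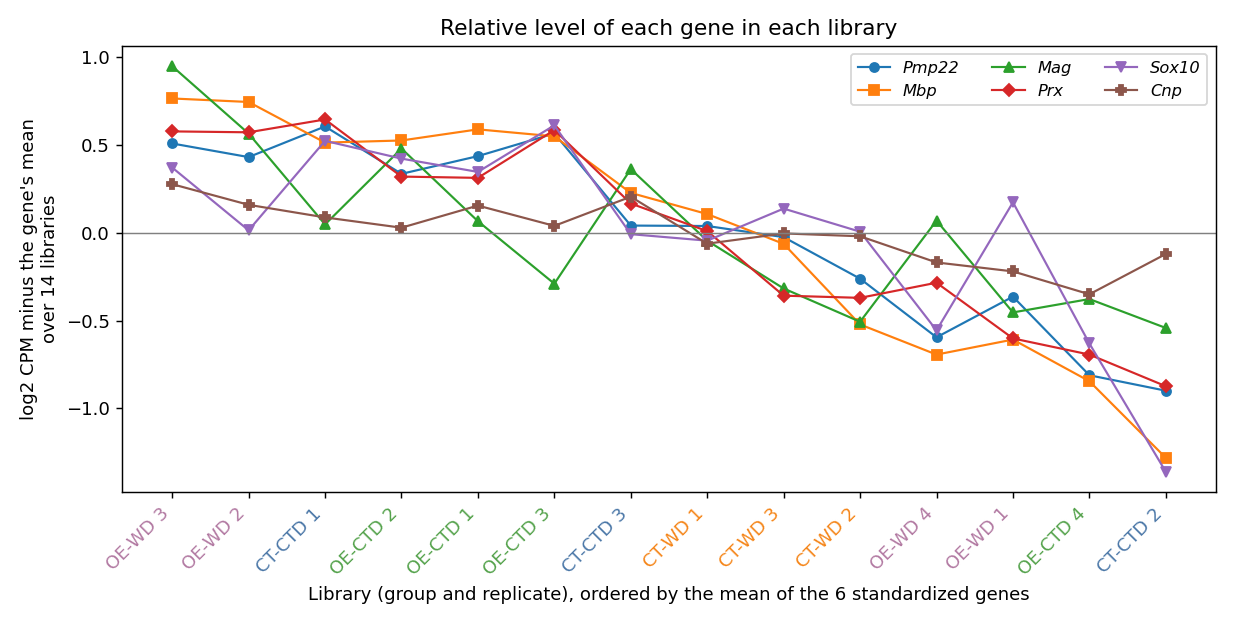
Log2 CPM of each of the 6 genes minus its mean over 14 libraries, with libraries ordered by the mean of the 6 standardized genes, OE-WD 3 at 1.26 on the left to CT-CTD 2 at −1.63 on the right. Label colours mark the groups, and Pmp22, Mbp and Prx run closest together, with Cnp the flattest.

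The 6 genes varied together across libraries, with the highest r among Pmp22, Mbp and Prx. Pmp22 and Mbp had Pearson r = 0.97 and Spearman rho = 0.90 over 14 libraries (permutation p = 1e-05, the smallest that 100000 resamples can give, and 4e-05, adjusted over 15 pairs to 3.8e-05 and 0.0003). Without CT-CTD 2 and OE-CTD 4, the libraries farthest from the Pmp22 median, r was 0.96, and with group means subtracted it was 0.98. Pmp22 with Prx gave r = 0.95 and rho = 0.96 (permutation p = 1e-05 for both, adjusted 3.8e-05 and 0.00015), with r = 0.92 without the same libraries and 0.96 with group means subtracted. Mbp with Prx gave r = 0.96 and rho = 0.87 (permutation p = 1e-05 and 0.0001, adjusted 3.8e-05 and 0.000375), then 0.93 and 0.97. Within genotypes, r between Pmp22 and Mbp was 0.97 over the 6 CT libraries and 0.98 over the 8 OE libraries.

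Sox10 with Pmp22 had r = 0.88 and rho = 0.85 (permutation p = 1e-05 and 0.00028, adjusted 3.8e-05 and 0.00084), with r = 0.81 after both far libraries were left out and 0.90 with group means subtracted. Cnp, in spite of its narrow range, had r = 0.82 and rho = 0.88 with Mbp (permutation p = 0.00033 and 0.0001, adjusted 0.000825 and 0.000375), with r = 0.83 and 0.90 in the same checks. Mag had r = 0.73 and rho = 0.75 with Mbp (permutation p = 0.00311 and 0.00268, adjusted 0.00426 and 0.00447), with 0.66 and 0.80. Mag and Sox10 formed the loosest pair, with r = 0.40 and rho = 0.35 (permutation p = 0.16 and 0.214, the same after adjustment), with 0.39 without OE-WD 2 and OE-WD 3, the libraries farthest from the Mag median, and 0.48 with group means subtracted.

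Of the 15 pairs all had r above 0, with a median of 0.80, and 14 passed an adjusted p under 0.05 by r and 13 by rho. With the 2 farthest libraries left out 10 of 15 passed, and the median r was 0.66. The pairs that then no longer passed, besides Mag with Sox10, were Pmp22 with Mag (r from 0.61 to 0.48, adjusted permutation p = 0.137), Mag with Cnp (from 0.72 to 0.57, adjusted permutation p = 0.0684), Prx with Sox10 (from 0.76 to 0.58, adjusted permutation p = 0.0603) and Sox10 with Cnp (from 0.56 to 0.42, adjusted permutation p = 0.186). With group means subtracted the median r over the 15 pairs was 0.84.

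Genes whose pattern over the 14 libraries was like that of the 6 were found by the Pearson r of their log2 CPM with the mean of the 6 standardized genes, among 11780 protein-coding genes with a mean of at least 1 CPM. Mal, a myelin proteolipid, had r = 0.96. Ugt8a, the enzyme that makes galactosylceramide for myelin, had 0.94. Below them were Pawr at 0.92, the periaxin partner Drp2 at 0.92, the axon-glia adhesion molecule Cadm4 at 0.92, and Cldn19, a claudin of Schwann cells, at 0.90. Plekha4 had 0.90, Aatk 0.87 and Tlcd1 0.87. Drp2 spanned 6.65 to 15.8 CPM. Mal, Ugt8a, Drp2, Cadm4 and Cldn19 belonged to the lists of nerve genes described next. The median r over the 11780 genes was 0.03, and 34 of them (0.289%) were above 0.8.

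Other genes of myelin and of Schwann cells were measured from lists. Of 8 other myelin and gap junction proteins 7 were tested, with a median r of 0.86 with the 6 genes, all 7 above 0.5, and 0 were called in the 4 comparisons between groups. Cldn19 averaged 4.96 CPM and Mal 6.73 CPM. The untested gene, Pmp2, had at most 5 reads in a library. The 5 enzymes of myelin lipids had a median r of 0.75 and were led by Cers2 at 9.11 FPKM. Genes of the node and paranode, where myelin ends, had a median r of 0.60 over 6 tested of 7 and were led by Cadm4 at 4.26 FPKM, with r from 0.92 for Cadm4 down to 0.07 for Nrcam and −0.37 for Cntnap1. Among the periaxin partners, Drp2 was at r = 0.92, Utrn at 0.50 and Dag1, which muscle fibres also express, at −0.18 with 47.2 FPKM. In these lists 0 genes were called in any of the 7 comparisons.

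Schwann cell identity genes, which include those of non-myelinating cells, had a median r of 0.59 over 7 tested of 8, with S100b at 0.81, Cdh19 at 0.71 and Gfra3 at −0.28, and Ncam1 the most abundant at 1.70 FPKM. Receptors and signals between axon and Schwann cell had a median r of 0.50 over 5 tested of 6, led by Erbb3, a neuregulin receptor, at 1.30 FPKM. In both lists 0 genes were called. Nrg1 itself, the axonal signal, had at most 6 reads in a library and was at 0 in 9 of 14 libraries.

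Of 9 transcription factors of the lineage 7 were tested, with a median r of 0.61 and Nab1 the most abundant at 3.50 FPKM. Averaged over diets 2 of 7 were called, where 8.49% of all genes were, and on CTD 1 of 7, where 2.67% were. Egr2, which switches on myelin genes with Sox10, had a lowest, median and highest level of 2.49, 3.31 and 4.42 CPM in the 8 OE libraries and of 1.13, 2.15 and 2.73 CPM in the 6 CT libraries, so the ranges overlapped slightly. It was higher in OE averaged over diets by 0.73 on the log2 scale (SE 0.19, edgeR adjusted p = 0.0299), with means of 3.39 ± 0.63 (SD, n = 8) and 2.04 ± 0.578 (n = 6) CPM. Nab2, a corepressor that binds Egr2, was between 6.27 and 10.3 CPM in OE-CTD and between 3.56 and 4.09 CPM in CT-CTD, with no overlap, and was higher in OE-CTD by 1.001 (SE 0.24, edgeR adjusted p = 0.0386). Averaged over diets it was higher in OE by 0.63 (SE 0.17, edgeR adjusted p = 0.0304). Both genes are also induced by growth signals in other cell types. The r with the 6 genes was 0.61 for Egr2 and 0.30 for Nab2. The calls were lost at leaving out any of 8 of the 14 libraries for Egr2, with adjusted p between 0.0117 and 0.0762, the 8 being CT-CTD 2 and 3, CT-WD 2 and 3, OE-CTD 1 and 2, and OE-WD 2 and 3. For Nab2 averaged over diets 7 libraries did so, CT-CTD 1, 2 and 3, CT-WD 2, OE-CTD 3, and OE-WD 2 and 3, with adjusted p between 0.0169 and 0.0674, and for OE-CTD against CT-CTD each of the 7 libraries of those groups did, up to an adjusted p of 0.135. Of the other settings limma without a filter ended the calls of both averaged over diets, and 4 of 11 settings that of Nab2 on CTD, up to an adjusted p of 0.137. In the same comparison of genotypes the 6 genes themselves had adjusted p between 0.416 and 0.957 by edgeR.

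Genes of the nerve sheath around the Schwann cells had a median r of 0.44 with the 6 genes over 8 tested of 8 and were led by Slc2a1, a glucose transporter, at 5.52 FPKM. Averaged over diets 2 of 8 were higher in OE, where 8.49% of all genes were called. Moxd1 was higher by 0.999 on the log2 scale (SE 0.28, edgeR adjusted p = 0.0357), with 2.12 ± 0.488 CPM (SD, n = 8) in OE and 1.04 ± 0.508 CPM (n = 6) in CT, and leaving out any of 9 of the 14 libraries ended the call. Etv1 was higher by 0.46 (SE 0.11, edgeR adjusted p = 0.0192), with 4.91 to 6.96 CPM in OE and 3.48 to 4.88 CPM in CT, and leaving out CT-CTD 2 or CT-WD 2 ended the call at an adjusted p of up to 0.0565. All 3 limma settings also ended that of Etv1, up to an adjusted p of 0.0712, and limma without a filter that of Moxd1. The libraries left out for Moxd1 were CT-CTD 2 and 3, CT-WD 2 and 3, OE-CTD 1, 2 and 3, and OE-WD 2 and 3.

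Of 6 oligodendrocyte genes 0 were tested, Mobp and Opalin were at 0 in 14 of 14 libraries, and the most abundant, Hapln2, averaged 0.083 FPKM. Of 5 melanocyte genes, a lineage that also uses Sox10, 1 was tested, Pmel, at 0.198 FPKM and with r = −0.03. Of 7 axon and neuron genes 2 were tested, the most abundant was Stmn2 at 1.21 FPKM with r = 0.18, and Prph, an intermediate filament protein of peripheral neurons, had r = 0.77 at 0.561 FPKM. Nefl, Nefm, Nefh and Chat had at most 5 reads in a library, and Nefl was at 0 in 11 of 14 libraries.

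Genes of skin varied with the 6 genes as well. All 6 epidermal genes were tested, each had r above 0.5 with the 6, and their median r was 0.70. Their summed level was 20.7, 2.50 and 5.85 FPKM in CT-CTD and 47.8, 4.64 and 5.56 FPKM in CT-WD. It was 11.5, 19.4, 18.9 and 1.38 FPKM in OE-CTD and 7.75, 42.95, 64.3 and 20.0 FPKM in OE-WD. The lowest sums were those of OE-CTD 4 and CT-CTD 2, also the libraries with the lowest mean of the 6 genes, and the highest was that of OE-WD 3, the library with the highest mean. Krt5, a keratin of basal skin cells, was the most abundant at a mean of 5.02 FPKM, Krt5 and Krt14 were at 0 in 1 library each, and Krt1 in 2. The part of epidermal tissue in the levels of the 6 genes was not tested.

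Fast fibre genes went the other way, with a median r of −0.57 over 7 of 7 tested, and Tnnt3 the most abundant at 10511 FPKM. Their sum was 43924, 46499 and 41681 FPKM in CT-CTD, and 41397, 52628 and 45764 FPKM in CT-WD. In OE-CTD it was 40596, 38570, 40241 and 51325 FPKM, and in OE-WD 42885, 41183, 40468 and 52538 FPKM. By deposited FPKM, OE-CTD 4, OE-WD 4 and CT-WD 2 had the highest sums. Both of the OE libraries were among the 4 libraries lowest in the 6 genes. As a share of counted reads CT-CTD 2, with 3018388 of 24101226, was above OE-CTD 4, with 2722614 of 22083340. OE-CTD 4 and OE-WD 4 also had the lowest TMM factors, 0.888 and 0.899. Their share of reads from the mitochondrial genome was the largest, 14.9% and 14.5%, against 9.66% to 12.8% in the other 12. CT-CTD 2, the lowest library of all, had a factor of 0.992 and a mitochondrial share of 10.1%. The part of fibre content and of composition in the levels of the 6 genes was not tested. Slow fibre genes had a median r of 0.00 over 6 of 6 tested, led by Tnnc1 at 367 FPKM.

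Fibroblast genes had a median r of 0.40 over 6 of 6 tested, and summed to 77.7, 70.9 and 57.1 FPKM in CT-CTD, 164.8, 67.3 and 63.5 in CT-WD, 155.3, 181.7, 170.7 and 109.5 in OE-CTD, with 127.1, 263.2, 158.5 and 126.7 for OE-WD. Averaged over diets, where 8.49% of all genes were called, 5 of 6 were higher in OE by edgeR, namely Col1a1 (1.53 on the log2 scale), Col3a1 (0.99), Dcn (0.76, the most abundant at 49.3 FPKM), Lum (0.65) and Pi16 (0.51). Pi16 was also higher in OE-CTD than in CT-CTD (0.66, edgeR adjusted p = 0.0425). Tendon genes had a median r of 0.52 over 5 of 5 tested and were led by Fmod at 63.5 FPKM. Their sum was 81.6, 36.2 and 57.4 FPKM in CT-CTD, 165.2, 30.5 and 38.6 in CT-WD, 140.5, 210.1, 174.4 and 110.7 in OE-CTD, with 141.7, 294.4, 193.6 and 107.9 for OE-WD. Thbs4 (1.13) and Tnmd (1.51) were higher in OE averaged over diets. At leaving out single libraries the log2 difference lay between 1.28 and 2.45 for Tnmd and between 1.31 and 2.26 for Col1a1. Among the CT libraries CT-WD 1 had the highest sums of both lists, 164.8 and 165.2 FPKM. Leaving out single libraries ended the calls averaged over diets in 9 of 14 cases for Dcn, Lum and Tnmd, up to an adjusted p of 0.118, in 7 for Col3a1, in 4 for Col1a1 and in 0 for Pi16 and Thbs4, and the call of Pi16 on CTD in 8, up to an adjusted p of 0.17. All 3 limma settings ended the calls of Dcn and Lum averaged over diets and of Pi16 on CTD, up to an adjusted p of 0.141, and limma without a filter those of Col3a1 and Tnmd. Among the OE libraries the lowest sums were those of OE-CTD 4, OE-WD 4 and OE-WD 1 for fibroblast genes and of OE-WD 4 and OE-CTD 4 for tendon genes, and OE-CTD 4, OE-WD 1 and OE-WD 4 were also the OE libraries lowest in the mean of the 6 nerve genes. The CT libraries did not follow this order. CT-CTD 2, lowest of all in that mean, had a fibroblast sum above those of CT-CTD 3, CT-WD 2 and CT-WD 3, and a tendon sum above that of CT-WD 2. CT-WD 1, with the highest CT sums, held rank 8 of 14 in that mean. CT-CTD 1, the CT library highest in it, had the next highest CT sums, 77.7 and 81.6 FPKM. The part of connective tissue in the levels of the 6 genes was not tested.

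Genes of endothelial cells, in which the transgene acts, had a median r of 0.21 with the 6 genes over 7 of 7 tested. Averaged over diets, where 8.49% of all genes were called, 4 of 7 were higher in OE by edgeR, namely Kdr (0.44 on the log2 scale), Tie1 (0.41), Cdh5 (0.36, the most abundant at 24.2 FPKM) and Emcn (0.35), and Cdh5 was also higher in OE-WD than in CT-WD (0.46). Leaving out single libraries ended the call of Emcn in 6 of 14 cases, of Kdr in 5 and of Cdh5 on WD in 5, up to an adjusted p of 0.142, and those of Tie1 and Cdh5 averaged over diets in 0. Of the other settings 4 of 11 ended the call of Cdh5 on WD, up to an adjusted p of 0.571, 2 of 9 that of Kdr and 1 of 9 that of Emcn. Macrophage genes had a median r of 0.26 over 6 of 6 tested with 0 called and C1qa the most abundant at 13.3 FPKM. Adipocyte genes had 0.32 over 6 of 6 tested, led by Cfd at 39.2 FPKM, and 1 was called, Lep, higher in OE averaged over diets by 2.25, a call that limma without a filter ended. Of the slow fibre genes Atp2a2 was higher in OE averaged over diets by 0.41.

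On the muscle side of the nerve, genes of the neuromuscular junction had a median r of −0.10 over 7 of 7 tested and were led by Chrnb1 at 19.0 FPKM. Of these 7 genes 1 was called, where 8.49% of all genes were, Musk, the receptor that builds the junction, lower in OE averaged over diets (−0.96 on the log2 scale, edgeR adjusted p = 0.0238). Of 5 genes that muscle raises after denervation 4 were tested, with a median r of −0.09 and Myog the most abundant at 10.2 FPKM. Of these 4 genes 1 was called, Gadd45a, lower in OE averaged over diets (−0.87, edgeR adjusted p = 0.00662), where 8.49% of all genes were called, and in OE-WD against CT-WD (−1.19, edgeR adjusted p = 0.0345), where 0.725% were. For diet in CT 0 of 4 were called, but 4 of 4 reached an unadjusted edgeR p under 0.05, against 7.28% of all genes. Their median log2 difference there was 0.64. For diet in OE 0 of 4 did, against 4.2%, with a median of −0.06. For genotype 2 of 4 did on WD, against 16.9%, and 2 of 4 on CTD, against 15.9%. Myog was at 76.6 CPM in CT-WD 3, its highest library, against a mean of 13.96 CPM over 14 libraries, and CT-WD 3 held rank 9 of 14 for the mean of the 6 nerve genes. Leaving out single libraries ended the calls of Musk in 5 of 14 cases and of Gadd45a on WD in 6 of 14, and those of Gadd45a averaged over diets in 0 of 14. All 3 limma settings ended the call of Musk, up to an adjusted p of 0.13, and 6 of 11 other settings that of Gadd45a on WD, up to an adjusted p of 0.504.

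The promoters of the 6 genes were compared because the genes moved together. RefSeq promoter sequences of GRCm38.p6 held entries for 4 of the 6, Pmp22, Mag, Prx and Cnp, with 9 transcription starts in all. The 250 bases before each start were searched on both strands for ACAAAG, which reads as CTTTGT on the other strand and is the core of sites bound by factors of the Sox family. The letters occurred before 3 of the 9 starts, in 2 genes, Mag and Cnp, and in 16.5% of all 32851 entries. The windows of both Mag starts with the letters overlap and hold the same site, so the 3 starts are not separate. A match is a description of the letters and not a binding site. The windows of Mag and Cnp are shown because they hold the letters, printed in capitals, 67 bases before the outermost start of Mag and 167 bases before that of Cnp. The Mag window is chr7:30914923-30915172 on the minus strand, and the Cnp window chr11:100574689-100574903 on the plus strand, 215 bases that end before the annotated gene.
Mag: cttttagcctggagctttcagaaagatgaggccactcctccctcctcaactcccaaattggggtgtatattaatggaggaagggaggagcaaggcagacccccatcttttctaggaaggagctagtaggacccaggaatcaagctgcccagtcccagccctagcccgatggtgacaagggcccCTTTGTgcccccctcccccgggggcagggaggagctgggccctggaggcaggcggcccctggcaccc
Cnp: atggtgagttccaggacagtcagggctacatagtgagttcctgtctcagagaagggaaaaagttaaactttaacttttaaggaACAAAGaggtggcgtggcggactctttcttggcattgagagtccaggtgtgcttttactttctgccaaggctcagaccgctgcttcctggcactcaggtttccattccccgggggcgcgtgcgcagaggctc
Mag and Cnp, the genes with the letters of the 4 searched, had r = 0.72, below the median of 0.80 over the 15 pairs, and rho = 0.71 across the libraries (permutation p = 0.00339 and 0.00533, adjusted 0.00426 and 0.00666, r = 0.57 without OE-WD 2 and OE-WD 3 and 0.79 with group means subtracted).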

How the data were processed

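Messenger RNA of 14 skeletal muscle libraries was selected with poly-T beads and sequenced by the authors. The submitters' processing notes name HISAT2 2.0.5, featureCounts 1.5.0-p3 and the build mm10. The authors deposited counts, reads assigned to each of 54532 genes without normalization, and FPKM values, which divide each count by gene length and by 79.9% to 98.0% of the library's total. Libraries were grouped by their labels, which differ from a legend of the study in group sizes and, as its methods do, from its results in the time on diet. The legend's sizes, 3 for CTD and 4 for WD, would be met if the names CT-WD and OE-CTD were exchanged, which was not tested. Diet and genotype differences would then trade places, with 0 of 6 genes called in each as before. List genes called for genotype would differ by diet instead. The study reports genes altered significantly in OE-WD against CT-WD. By the labels 112 genes were called there, and 1 in OE-WD against OE-CTD, which an exchange would put in its place. Averaged over diets, Lep was higher in OE by 2.25 on the log2 scale. On WD the study reports lower systemic leptin, a protein measured in blood, in OE than in CT. Blood protein on WD and muscle transcript over both diets are unlike measures, and their relation was not tested. The labels do not say that libraries came from separate mice, and the deposited names share digits among OE-CTD 1, 2 and 3 and among all 4 of OE-WD, so p-values measure only the spread between these libraries, which may be technical.

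Differences were tested on the counts by edgeR 4.0.16 under R 4.3.3 (TMM, filterByExpr, quasi-likelihood, a mean for each of the 4 groups, Benjamini-Hochberg over 15458 genes), after the code was tested on simulated data. Log2 CPM had a prior count of 2, and the biological coefficient of variation was 17%. DESeq2 1.42.0 and limma 3.58.1, on log2(FPKM + 1) or log2(FPKM + 0.1), other scalings, no filter, a replicate block and leaving out libraries were alternatives. Permutation p-values were two-sided. Genes named were the 6, list genes with a call, the most abundant gene of most lists and genes among the 10 most similar, and others were chosen after their values were seen. The 6 genes and the lists were chosen with earlier results of these data known. Replicates differed by more than sampling noise, with a chi-square per degree of freedom of 7.50 to 48.1. It was 7.50 to 10.2 among OE-CTD 1, 2 and 3 and 35.6 to 41.2 between them and OE-CTD 4, and 8.17 to 14.5 among OE-WD 1, 2 and 3 and 37.2 to 40.4 between them and OE-WD 4. Replicate numbers were checked as a pairing by correlating deviations from the group means, which gave 0.385, 0.123 and 0.203 for the CT groups. On this check alone, CT libraries of equal number were taken as pairs, and the main fit, fixed before the files were seen, has no block. The check was not clear-cut, as CT-CTD 2 correlated best with CT-WD 3 and not with CT-WD 2. In OE, OE-CTD 1 correlated best with OE-WD 2, and OE-CTD 2, 3 and 4 with the OE-WD library of their own number. Of 54409 gene identifiers shared with GENCODE M21, 53499 had the same position.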

Additional observations from a re-analysis of the deposited data

Results flagged for a closer look

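Mbp in OE-CTD 4 was at 25.7 CPM, far from the other libraries of that group at 66.5 to 69.5 CPM. The gap to the nearest of them was 0.932 of the range of the group, above Dixon's 95% critical value for 4 libraries. It is also the library of that group whose deposited name does not share the digits of the other 3, and if those 3 were not independent the critical value would not apply. In the same library the summed fast fibre genes were at 51325 FPKM, far above the 38570 to 40596 FPKM of the other 3, with a gap of 0.841 of the range. The FPKM of OE-CTD 4 were divided by 79.9% of its total and those of the other 3 by 94.2% to 97.8% of theirs. As a share of counted reads, a comparison chosen after seeing the data, the sum was 12.3% in OE-CTD 4 and 10.7% to 11.1% in the other 3, a gap of 0.724 of the range that is below the critical value, while in OE-WD 4 it was 13.0% against 11.5% to 11.7%, a gap of 0.889. Chance alone gives such a gap in about 1 in 20 groups, and 24 were examined. The part of fibre content in the low Mbp of OE-CTD 4 was not tested.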

How the results depend on the processing

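The count of the 6 genes called was 0 in all 7 comparisons under every alternative run, the replicate block included. Of 1014 log2 differences of the 6 genes under an alternative, 934 kept their direction and 80 changed it, 63 at leaving out a library. None had an adjusted p under 0.1769, and 6 had an unadjusted p under 0.05, the lowest 0.01799. The causes of the changes below were not tested.

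Under limma on log2(FPKM + 1), with or without the filter, the difference changed sign for Sox10 in OE-WD against CT-WD (−0.007783), Mbp in the interaction (−0.1158) and Sox10 for diet averaged (0.004986). With log2(FPKM + 0.1) these were −0.02441, −0.1642 and 0.05574, and Pmp22 (0.002794) and Mbp (0.01825) changed for diet in CT. With the replicate block it changed for Prx for diet in OE (0.006066) and Cnp for genotype averaged (0.06401), and with the block in the compared groups alone for Mbp for diet in CT (0.002032) and Cnp in OE-CTD against CT-CTD (0.01726). With either block every genotype difference of the 6 genes was higher than in the main fit, at edgeR adjusted p of 0.1769 or more. Replicate number 4 occurs only in the OE groups, so a block also takes up the level of OE-CTD 4 and OE-WD 4. The part of pairing by itself in the higher genotype differences was therefore not tested. With the block in all groups, Mbp averaged went from 0.3305 to 0.6066, Pmp22 on WD from 0.1503 to 0.3927 and Prx on WD from 0.3844 to 0.5852, and in the compared groups alone, on CTD, Pmp22 went from 0.1823 to 0.5227, Mbp from 0.3092 to 0.7048, Prx from 0.09977 to 0.4119 and Sox10 from 0.3583 to 0.6976. The numbers of the OE groups correlated by 0.0711 to 0.338 and were not taken as pairs, so the block's values for OE rest on a shared number only. Between genotypes equal numbers correlated by −0.23 to −0.0647 on WD and by −0.122 to 0.0465 on CTD. Without OE-CTD 4 and OE-WD 4, an alternative chosen after seeing the data, it changed for Cnp in OE-CTD against CT-CTD (0.01026) and for genotype averaged (0.06153).

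Leaving out each library in turn gave ranges of the log2 difference that include a change of sign for 28 of 42 values. For diet in CT it took Pmp22 from −0.4269 to 0.2673, Mbp from −0.5119 to 0.1935, Prx from −0.6537 to 0.02444 and Sox10 from −0.2517 to 0.5641. For diet in OE it took Pmp22 from −0.375 to 0.01832, Mbp from −0.3377 to 0.1121, Prx from −0.2544 to 0.1337 and Cnp from −0.04843 to 0.1187. For genotype on WD it took Pmp22 from −0.02919 to 0.3186, Sox10 from −0.1257 to 0.1605 and Cnp from −0.03811 to 0.1305. For genotype on CTD it took Pmp22 from −0.1265 to 0.5701, Mbp from −0.06276 to 0.6451, Mag from −0.1985 to 0.2483, Prx from −0.2175 to 0.4631, Sox10 from −0.01491 to 0.8035 and Cnp from −0.1649 to 0.01161. For the interaction it took Pmp22 from −0.4249 to 0.2762, Mbp from −0.2995 to 0.414, Prx from −0.08372 to 0.6014 and Sox10 from −0.8017 to 0.01903. For genotype averaged it took Sox10 from −0.005393 to 0.4026 and Cnp from −0.06021 to 0.03388. For diet averaged it took Pmp22 from −0.2888 to 0.05492, Mbp from −0.3049 to 0.04371, Mag from −0.08994 to 0.153, Sox10 from −0.2422 to 0.1633 and Cnp from −0.0707 to 0.01378.

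The count of correlated pairs, 14 of 15, was 14 with either other scale and 13 to 14 at leaving out a library. Sox10 with Cnp was lost in 5 such cases, at r = 0.478 to 0.551 and adjusted permutation p of up to 0.103, and Pmp22 with Mag without CT-CTD 2. Over all genes the number called moved by more than 1.5 times under many alternatives, for genotype on WD from 112 to between 0 (replicate block, compared groups alone) and 560 (no filter), 1499 without CT-WD 1 and 4 without OE-WD 2. For genotype on CTD it moved from 413 to between 90 (limma, no filter) and 776 (replicate block, compared groups alone) and to 77 without CT-CTD 3, for genotype averaged from 1312 to 623 (limma, no filter) and 2487 without CT-WD 1, for diet in CT from 0 to 93 (no filter), for diet in OE from 1 to 53 (replicate block, compared groups alone), for the interaction from 0 to 29 and for diet averaged from 1 to 68 (both no filter). In the compared groups alone without a block, 4 genes were called for genotype on WD, 596 on CTD and 1 for diet in OE. With the block in all groups these counts were 124, 687 and 1. Of the 6 genes Mag had the fewest reads in each library, 24 to 78, and so the largest relative counting error.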
